A study of Homo sapiens with 6 samples.

Results

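The 10 genes described here are the core of the integrated stress response: the transcription factors ATF4, DDIT3 (which encodes CHOP), CEBPB and CEBPG, the feedback genes PPP1R15A (GADD34) and TRIB3, and the downstream genes CHAC1, ASNS, SESN2 and GDF15. They were taken by gene symbol from a table of 58735 genes, and all 10 were found in it. The samples were AZ-521 cells with no engineered change (genotype WT in the labels), kept for 48 h either with 10 µM platycodon D (PD), a triterpenoid saponin, or with its solvent DMSO. Each group had 3 samples, and messenger RNA was sequenced. AZ-521 is an established line, labelled as gastric cancer, whose origin cell banks now give as a carcinoma of the duodenum. Whether replicates came from separate cultures is not in the labels. The p-values then reflect only how far these samples spread, and that spread may be technical.

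The integrated stress response starts when a kinase phosphorylates the alpha subunit of eIF2, the factor that brings the initiator tRNA to the ribosome. Most translation then slows, while messages with suitable upstream open reading frames, such as those of ATF4 and CHOP, are translated better. ATF4 binds composite C/EBP-ATF elements together with C/EBP partners and switches on genes of amino acid supply and stress, and PPP1R15A brings a phosphatase to eIF2 that ends the response. The values below are messenger RNA levels. Phosphorylation and protein were not analysed here.

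After PD the 10 genes went in opposite directions. PPP1R15A, GDF15 and DDIT3 rose, TRIB3 and CHAC1 fell, and ATF4, CEBPB, CEBPG, ASNS and SESN2 did not pass the test. "Rose" and "fell" mean an adjusted p under 0.05 in limma on log2(FPKM + 1). The fit took in the 13579 genes that reached 1 FPKM in 3 or more samples, and the Benjamini-Hochberg adjustment ran over them all. FPKM is a read count divided by gene length and by a divisor for each sample. Levels of different genes can be set side by side only roughly. Libraries differed with GC content, which ran from 43.9% (CEBPG) to 66.2% (CEBPB) in the 10 genes, and some exons are shared with other genes. So 5 of the 10 genes changed, where 27.1% of all tested genes did. The 3 rises stand beside 14.3% of all tested genes that rose and the 2 falls beside 12.7% that fell. Those are 1947 and 1731 genes, a split that became 1290 and 3158 when samples were scaled to equal FPKM totals. The same 3 genes were higher and the same 2 lower in PD without any overlap of samples, as were 22.5% and 21.9% of all tested genes. All 10 members passed the filter on low values in both groups, with a lowest value of 5.53 FPKM for ASNS in PD replicate 3. The median log2 fold change of the 10 genes was -0.022, against 0.0010 for all genes tested. Each of the 5 genes that changed kept its direction and passed in all 18 other settings run.

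**Figure D1:**
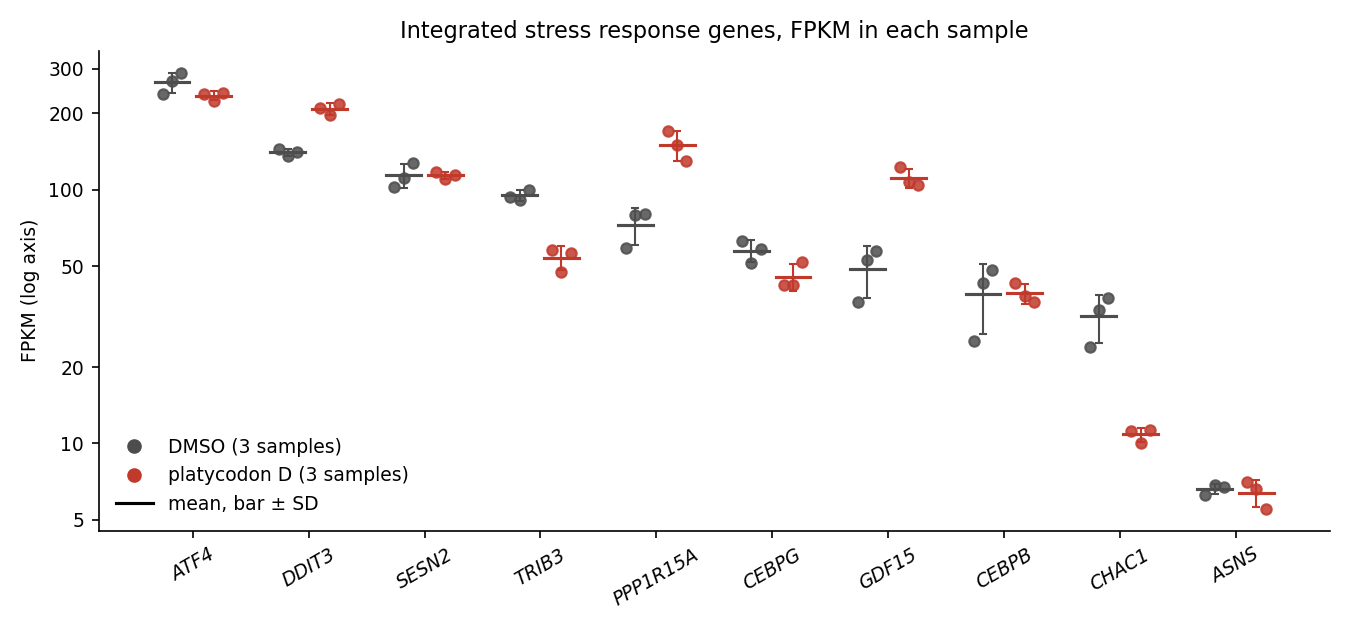
FPKM of each gene in each sample on a log axis, with DMSO in grey and platycodon D in red, the mean of 3 samples as a horizontal line and the SD as a bar. DDIT3, PPP1R15A and GDF15 lie higher in all 3 PD samples than in any DMSO sample, TRIB3 and CHAC1 lie lower, and the groups of the other 5 genes overlap.

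Libraries of the same group differed with the GC content of genes. In DMSO replicate 1 and PD replicate 3, genes rich in GC lay below their group mean (Spearman rho across genes of -0.64 and -0.52). The rho was positive in DMSO replicate 2 (0.46), DMSO replicate 3 (0.54) and PD replicate 1 (0.61) and near 0 in PD replicate 2 (0.021). Deviations from a group's own mean balance within the group, so in PD these values do not single out replicate 3 over replicate 1. DMSO replicate 1 and PD replicate 3 were left out together in 1 setting because earlier results of these data had set them apart. DMSO replicate 1 was the lowest DMSO sample for 7 of the 10 genes and DMSO replicate 3 the highest for 7. Without DMSO replicate 1 and PD replicate 3, the same test gave 3 genes that rose and 3 that fell, the added one being CEBPG. Reads over genes numbered between 14915538 and 16341687 per sample, and each of the 10 genes had at least 318 reads in every sample. The 5 epithelial markers EPCAM, KRT8, KRT18, KRT19 and CDH1 and the 6 gastric markers MUC5AC, MUC6, TFF1, TFF2, GKN1 and CLDN18 were all under 1 FPKM in every sample, with a highest value of 0.428 and 0.484 FPKM, so the labelled epithelial type was not seen in these genes. KRT18, KRT19, TFF1, TFF2 and GKN1 were listed at 0 in all 6 samples. KRT8 and KRT18 overlap on opposite strands. How reads in such stretches were handled was not given in the sources used here, so the levels of these 2 genes are uncertain. Leukocyte markers summed to at most 0.325 FPKM and endothelial markers to at most 0.0686 FPKM in a sample. Fibroblast markers summed to between 54.0 and 64.8 FPKM in DMSO and between 50.4 and 51.8 FPKM in PD, nearly all of it COL3A1 and LUM. The 6 intestinal markers CDX1, CDX2, VIL1, CDH17, PDX1 and FABP1 were low too. They summed to between 1.58 and 2.39 FPKM in DMSO and between 1.38 and 1.63 FPKM in PD. Only CDX2, at 0.979 to 1.59 FPKM, was tested, with a log2 fold change of -0.061 that did not pass. The others were under 1 FPKM in every sample, with a highest value of 0.770 FPKM for PDX1. The part of these markers in the results was not tested. In bulk RNA, fewer cells of a type and less RNA per cell cannot be told apart.

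The starts of 4 of the 10 genes carried a motif that the bZIP factors of this response are known to bind, and these stretches are shown because genes with the same motif had different values. The RefSeq windows of 250 bases before each listed start (build GRCh38.p14) were searched on both strands for the C/EBP-ATF element TGATGNAA and the cyclic AMP response element TGACGTCA. All 10 genes had a window. The first motif was found for 3 of the 10 genes, CHAC1, CEBPG and ASNS, and in 3.14% of all 35116 windows, or 2.18% of the 8859 tested genes with a window. The second was found for 1, PPP1R15A, and in 1.65% of all windows, or 3.61% of those tested genes. Capitals mark the motif, and CHAC1 holds it as its reverse complement. For CHAC1 and ASNS the motif lies inside annotated exons of some transcripts, so only 30 bases are given. For CEBPG and PPP1R15A the part of the window outside the gene's annotated exons is given, which for CEBPG is the start of an intron of the longer transcript. The stretches are chr15:40953251-40953280 for CHAC1, chr7:97872458-97872487 on the minus strand for ASNS, chr19:33373896-33374112 for CEBPG and chr19:48872171-48872391 for PPP1R15A, the others on the plus strand.
CHAC1: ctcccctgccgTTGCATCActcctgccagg
ASNS: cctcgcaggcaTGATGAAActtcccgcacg
CEBPG: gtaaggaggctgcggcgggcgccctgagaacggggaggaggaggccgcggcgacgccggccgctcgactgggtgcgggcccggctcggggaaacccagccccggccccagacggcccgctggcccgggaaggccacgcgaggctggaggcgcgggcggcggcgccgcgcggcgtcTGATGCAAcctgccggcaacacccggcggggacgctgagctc
PPP1R15A: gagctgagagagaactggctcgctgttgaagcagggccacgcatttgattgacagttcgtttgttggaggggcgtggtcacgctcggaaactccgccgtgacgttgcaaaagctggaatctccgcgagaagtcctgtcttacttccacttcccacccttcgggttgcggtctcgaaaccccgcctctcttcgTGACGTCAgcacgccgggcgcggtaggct
The motif begins 209 bases before the RefSeq start in CHAC1 and 58 in PPP1R15A. In ASNS it begins 68 bases and in CEBPG 42 bases before 1 of the listed starts. ASNS and CEBPG also have another listed start, whose window held neither motif. In CEBPG the motif belongs to the downstream start and lies after the upstream one. With the C/EBP-ATF letters before a listed start, CHAC1 fell by 1.44 on the log2 scale, CEBPG stood at -0.33 without passing and ASNS at -0.050. TRIB3, DDIT3, GDF15, SESN2, CEBPB and ATF4 held neither motif in these windows, which says only that these letters are not there.

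ATF4 (ENSG00000128272, chr22:39519695-39522685 in GRCh38), the factor at the centre of the response, had the highest message level of the 10 genes in both groups. It stood at 239.6, 269 and 288 FPKM in DMSO replicates 1 to 3 and at 239, 225 and 242 FPKM in PD replicates 1 to 3. The groups overlapped, with the lowest DMSO sample inside the PD range. The log2 fold change was -0.17 (95% interval -0.41 to 0.07, adjusted p = 0.250 in limma), so a fall of up to 0.41 on the log2 scale is within the interval. The call depended on the scaling between samples: with equal FPKM totals, which shifted the median of all genes by -0.14, ATF4 fell by 0.33 (adjusted p = 0.0395), and under quantile normalization it fell by 0.52 (0.00791). It also passed with array weights, at -0.26 (0.0241). In the other 15 settings it was lower in PD without passing. Its processed copy ATF4P3 was listed at 0.678 to 1.66 FPKM.

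DDIT3 (ENSG00000175197, chr12:57516588-57521737) encodes CHOP, a C/EBP-related factor that is induced by ATF4 and linked to cell death under lasting stress. It stood at 145, 136 and 141 FPKM in DMSO replicates 1 to 3 and at 209.9, 198 and 219 FPKM in PD. All PD samples were higher than all DMSO samples, and replicates within a group lay close together. The mean rose 1.48-fold, with a log2 fold change of 0.57 ± 0.09 (SE, adjusted p = 0.00401 in limma). DDIT3 overlaps genes on the other strand: 27.2% of its exonic bases are also exonic in MARS and 4.44% in MBD6. MARS moved the opposite way, from 48.2 ± 2.73 to 27.8 ± 1.16 FPKM (SD, n = 3). On its own strand 8.03% of its exonic bases are shared with AC022506.1, which was listed at 0 in all samples. Whether strand was used in counting was not given in the sources used here, so reads in the shared stretches cannot be assigned.

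CEBPB and CEBPG are dimer partners of ATF4 and CHOP. CEBPB (ENSG00000172216, chr20:50190734-50192689), also a factor of inflammation and differentiation, stood at 25.4, 43.0 and 48.2 FPKM in DMSO and at 43.0, 38.2 and 36.1 FPKM in PD. The spread within DMSO, with replicate 1 far below the other 2 samples, was wider than the distance between the group means of 38.9 and 39.1 FPKM. Its log2 fold change was 0.054 (95% interval -0.47 to 0.58, adjusted p = 0.883). Without DMSO replicate 1 the sign turned, to -0.22 (adjusted p = 0.184). The antisense gene CEBPB-AS1, which covers 11.8% of its exonic bases, was listed at 0.277 to 0.775 FPKM.

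CEBPG (ENSG00000153879, chr19:33373330-33382686), a C/EBP protein that lacks a strong activation domain of its own, stood at 62.6, 51.5 and 58.6 FPKM in DMSO and at 42.3, 42.3 and 52.0 FPKM in PD. PD replicate 3 lay above the lowest DMSO sample, so the groups overlapped. The log2 fold change was -0.33 (95% interval -0.61 to -0.06, adjusted p = 0.0754 in limma). CEBPG passed in 8 of the 18 other settings, among them the fit without PD replicate 3 (-0.43, adjusted p = 0.0339), that without both DMSO replicate 1 and PD replicate 3 (-0.37, 0.029), equal FPKM totals (-0.49, 0.00952) and limma's voom on recovered reads (-0.34, 0.0468), and was lower in PD in all 18.

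Among the 43 tested genes that the deposited table assigns to the bZIP or C/EBP families, which share a basic DNA-binding region and a leucine zipper, ATF4 and DDIT3 were the highest and next highest by mean DMSO level, with CEBPG in place 6 and CEBPB in place 9. Of these 43 genes 12 rose and 5 fell, with a median log2 fold change of 0.14. Of all tested genes 14.3% rose and 12.7% fell, so the falls were near that share. With equal totals the counts were 10 and 10. The number that fell was 3 without DMSO replicate 2, and 2 without DMSO replicate 3, PD replicate 1 or PD replicate 2. Among ATF4, DDIT3, CEBPB and CEBPG, DDIT3 alone was one of the 12. The family was read from the table after the values of the 10 genes had been seen.

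The feedback genes moved apart. PPP1R15A (ENSG00000087074, chr19:48872392-48876057), the stress-induced regulatory subunit that directs protein phosphatase 1 to eIF2 alpha, stood at 59.0, 79.6 and 80.2 FPKM in DMSO and at 171, 151 and 129.5 FPKM in PD. The lowest PD sample was well above the highest DMSO sample. The mean rose 2.06-fold, from 72.9 ± 12.1 to 150.4 ± 20.6 FPKM (SD, n = 3), with a log2 fold change of 1.04 ± 0.16 (SE, adjusted p = 0.00382 in limma). Its range over the other settings was 0.87 to 1.14.

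TRIB3 (ENSG00000101255, chr20:362835-397559), a pseudokinase that binds AKT and restrains ATF4 and CHOP, went the other way. It stood at 93.8, 91.2 and 100.2 FPKM in DMSO and at 58.0, 47.3 and 56.6 FPKM in PD, with no overlap. The mean fell from 95.1 ± 4.65 to 54.0 ± 5.83 FPKM (SD, n = 3), and DMSO was 1.76 times PD. The log2 fold change was -0.81 ± 0.10 (SE, adjusted p = 0.00221), between -0.97 and -0.72 over the other settings.

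CHAC1 (ENSG00000128965, chr15:40952962-40956519), which cleaves glutathione inside the cell and is a standard target of ATF4 and CHOP, had the largest change of the 10 genes. It stood at 24.1, 33.6 and 37.4 FPKM in DMSO and at 11.2, 10.1 and 11.3 FPKM in PD. The DMSO samples were spread and the PD samples nearly equal. The mean in DMSO was 2.92 times that in PD, and the log2 fold change was -1.44 ± 0.16 (SE, adjusted p = 0.00122 in limma). Without DMSO replicate 1, the lowest of its group, the fall was 1.62 on the log2 scale. By mean level CHAC1 moved from rank 1155 of 13579 tested genes in DMSO to rank 4228 in PD.

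GDF15 (ENSG00000130513, chr19:18374731-18389176), a secreted cytokine of the TGF-beta superfamily that answers cell stress and is also a target of p53, stood at 36.0, 53.0 and 57.4 FPKM in DMSO and at 123, 108 and 104 FPKM in PD. All PD samples were above all DMSO samples. The mean rose 2.28-fold, with a log2 fold change of 1.20 ± 0.18 (SE, adjusted p = 0.00352), and over the other settings the log2 fold change lay between 0.998 and 1.33. Its lower end came from the fit without DMSO replicate 1.

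SESN2 (ENSG00000130766, chr1:28259527-28282491), a leucine sensor that restrains mTORC1, and ASNS (ENSG00000070669, chr7:97852118-97872542), which makes asparagine, did not move beyond the spread of their replicates. SESN2 stood at 103, 111 and 127 FPKM in DMSO and at 117, 110.0 and 115 FPKM in PD, so that all PD samples lay within the DMSO range. Its log2 fold change was 0.0052 (95% interval -0.23 to 0.24, adjusted p = 0.976), and its sign turned in 10 of the 18 other settings, including equal totals, upper quartile scaling and quantile normalization. ASNS stood at 6.27, 6.87 and 6.75 FPKM in DMSO and at 7.03, 6.63 and 5.53 FPKM in PD. Its log2 fold change was -0.050 (95% interval -0.29 to 0.19, adjusted p = 0.759). It was the lowest of the 10 genes in both groups, with 369 to 531 reads per sample. Of its exonic bases 44.6% are also exonic in AC079781.5, a noncoding gene on the same strand that was listed at no more than 0.182 FPKM. The handling of reads in shared exons was not given in the sources used here, so the level of ASNS is uncertain.

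**Figure D2:**
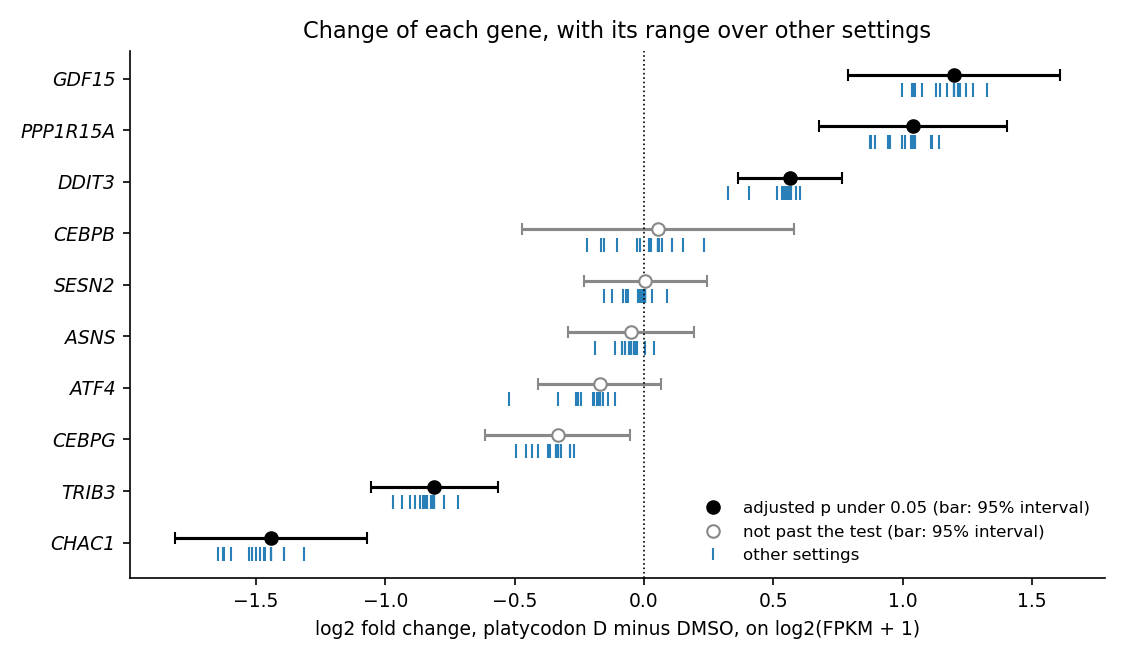
Log2 fold change of each gene (platycodon D minus DMSO, on log2(FPKM + 1)) with its 95% interval from limma, filled where the adjusted p was under 0.05, and blue ticks for the values in the 18 other settings. The intervals of GDF15, PPP1R15A and DDIT3 lie above 0 and those of TRIB3 and CHAC1 below 0, while the ticks of CEBPB, SESN2 and ASNS fall on both sides of 0.

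The order of levels shifted between the groups. In DMSO it was ATF4, DDIT3, SESN2, TRIB3, PPP1R15A, CEBPG, GDF15, CEBPB, CHAC1 and ASNS, and the neighbours from PPP1R15A down to CHAC1 overlapped in their samples. In PD it was ATF4, DDIT3, PPP1R15A, SESN2, GDF15, TRIB3, CEBPG, CEBPB, CHAC1 and ASNS, where SESN2 overlapped with GDF15, TRIB3 with CEBPG and CEBPG with CEBPB. TRIB3 was above PPP1R15A in every DMSO sample and below it in every PD sample. In DMSO 9 of the 10 genes, all but ASNS, ranked among the 1155 highest of the 13579 tested genes. ATF4 held rank 53 in DMSO and rank 78 in PD.

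Ratios of FPKM within a sample do not depend on the scaling between samples, so each gene was also set against ATF4 in the same sample. Differences between libraries that follow GC content are not removed in this way. The level of DDIT3 was 0.604, 0.507 and 0.488 times that of ATF4 in DMSO and 0.878, 0.879 and 0.903 times in PD. GDF15 went from 0.150, 0.197 and 0.199 times to 0.513, 0.479 and 0.430 times, and PPP1R15A from 0.246, 0.296 and 0.278 to 0.715, 0.671 and 0.535 times. CHAC1 went down, from 0.101, 0.125 and 0.130 to 0.0470, 0.0448 and 0.0466 times, as did TRIB3, from 0.391, 0.339 and 0.348 to 0.243, 0.210 and 0.234 times. SESN2, whose own level did not pass the test, was 0.430, 0.414 and 0.442 times ATF4 in DMSO and 0.490, 0.489 and 0.475 times in PD, without overlap. Of the 9 ratios 4 were higher in PD and 2 lower without overlap, beside 30.5% and 12.5% of 13331 genes set against ATF4 in the same way. The largest mean differences were 1.39 for GDF15 and -1.35 for CHAC1 on the log2 scale. For each of these 6 ratios the exact two-sided permutation test gave p = 0.1, the smallest that 3 samples against 3 allow, and 0.15 adjusted over the 9 ratios by the Benjamini-Hochberg method. The ratios of CEBPB, CEBPG and ASNS overlapped (exact permutation p = 0.4 each).

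**Figure D3:**
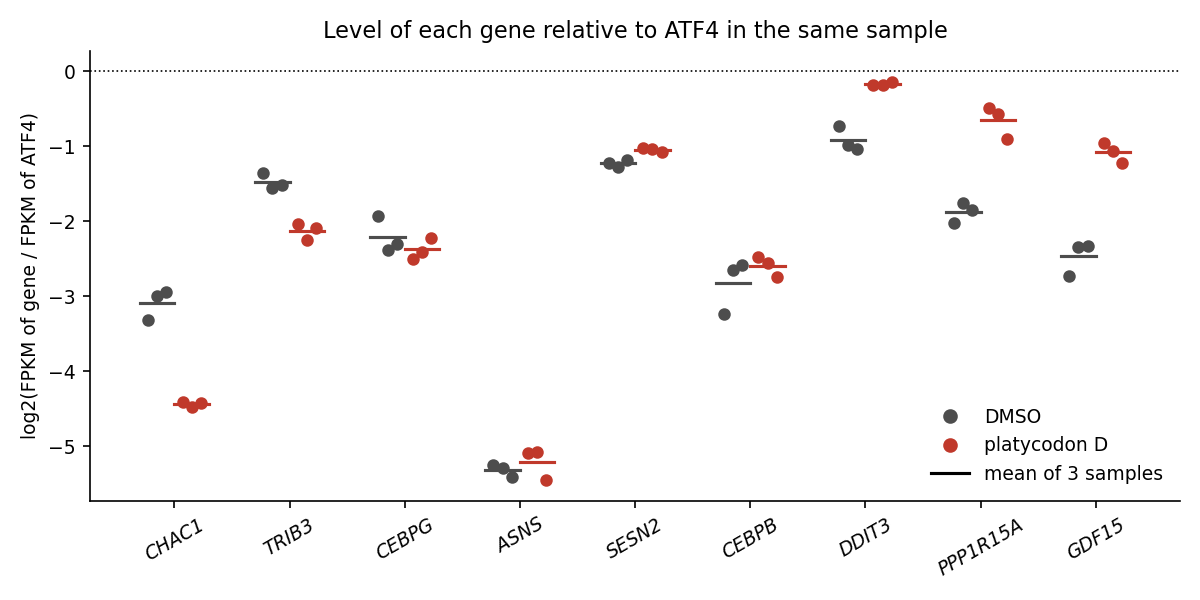
Level of each of the other 9 genes relative to ATF4 in the same sample, as log2 of the FPKM ratio, with DMSO in grey, platycodon D in red and the mean of 3 samples as a line. DDIT3, PPP1R15A, GDF15 and SESN2 lie nearer to ATF4 in PD, and CHAC1 and TRIB3 lie further below it.

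All 4 kinases that start the response were tested, and EIF2AK3 had the lowest level and EIF2AK1 the highest. EIF2AK3 (PERK), the sensor of the endoplasmic reticulum, rose from 3.61 ± 0.898 to 5.73 ± 0.463 FPKM (SD, n = 3), a log2 fold change of 0.56 ± 0.15 (SE, adjusted p = 0.0283 in limma). EIF2AK4 (GCN2), which senses uncharged tRNA, fell from 15.9 ± 0.884 to 11.7 ± 0.884 FPKM (-0.42, adjusted p = 0.0153), and EIF2AK1 (HRI), which senses heme, fell from 32.7 ± 1.19 to 26.3 ± 2.44 FPKM (-0.31, adjusted p = 0.0473). EIF2AK2 (PKR), the kinase of double-stranded RNA, stood at 16.3 ± 1.58 and 13.1 ± 1.49 FPKM (-0.30, adjusted p = 0.0897). It passed in 7 of the 18 other settings. Of the fits that left out 1 replicate, EIF2AK2 passed only without PD replicate 3 (0.0462), with 0.111 to 0.236 in the others. With 5 samples the log2 fold changes stayed in the same direction, between 0.47 and 0.71 for EIF2AK3, -0.47 and -0.38 for EIF2AK4 and -0.38 and -0.26 for EIF2AK1, but many did not pass. EIF2AK3 lost its call when DMSO replicate 2 (adjusted p = 0.0905) or DMSO replicate 3 (0.0918) was left out, and likewise for PD replicates 1 (0.051), 2 (0.0911) and 3 (0.0665). EIF2AK4 lost it with DMSO replicate 3 (0.0608), PD replicate 1 (0.0555) or PD replicate 2 (0.0644) left out. EIF2AK1 kept it only when PD replicate 3 was the one left out, with 0.0728 to 0.163 for each of the other 5.

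Among 16 genes of eIF2, its exchange factor eIF2B, the catalytic subunits of protein phosphatase 1 and regulators of the kinases, 0 rose and 0 fell in limma. Of all tested genes 14.3% rose and 12.7% fell. At an unadjusted p under 0.05 there were 5, and voom on the recovered reads called 1 higher and 2 lower. EIF2S2 and EIF2S3, the beta and gamma subunits of eIF2, had the highest levels and stood at 110.2 ± 6.92 and 88.3 ± 11.7 FPKM (-0.32, adjusted p = 0.0756) and at 98.1 ± 4.89 and 91.0 ± 4.11 FPKM (-0.11, adjusted p = 0.395). Without DMSO replicate 1 and PD replicate 3, 2 of the 16 rose and 4 fell, and with equal totals 6 fell. EIF2S2 passed in 8 of the 18 other settings. Of the fits that left out 1 replicate, it passed only without PD replicate 3 (adjusted p = 0.0238), with 0.139 to 0.213 in the others.

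Paralogues of the 10 genes did not always move with them. Of 10 listed, 7 were tested, while CEBPE was listed at 0 and TRIB2 and SESN3 had means under 0.1 FPKM. TRIB1 rose from 5.30 ± 0.175 to 8.87 ± 0.909 FPKM (0.64, adjusted p = 0.00391), where TRIB3 fell. SESN1, a p53 target, fell from 10.4 ± 1.72 to 7.10 ± 0.672 FPKM (-0.48, adjusted p = 0.0304), but lost the call with DMSO replicate 3 (0.0598), PD replicate 1 (0.0933) or PD replicate 2 (0.0904) left out. CHAC2 stood at 14.8 ± 2.37 and 8.73 ± 3.30 FPKM (-0.74, adjusted p = 0.051). It passed in 9 of the 18 other settings (adjusted p up to 0.150), among them the fit without PD replicate 3 (0.00699). PPP1R15B, the constitutive counterpart of PPP1R15A, stood at 33.3 ± 3.01 and 37.7 ± 1.36 FPKM (0.18, adjusted p = 0.194). ATF5, CEBPA and CEBPD stood at -0.14, -0.15 and 0.14 on the log2 scale without passing.

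Other genes that ATF4 is known to drive were read from lists by role. Enzymes of amino acid and one-carbon synthesis fell in 10 of 12 tested cases and rose in 0, with a median log2 fold change of -0.82. Of all tested genes 12.7% fell and 14.3% rose. The count was 9 without PD replicate 2 and 10 without any other replicate. PSAT1, an enzyme of serine synthesis, fell from 131 ± 9.23 to 53.1 ± 7.09 FPKM (-1.29, adjusted p = 0.000637), and ALDH1L2, a mitochondrial folate enzyme, from 23.3 ± 2.01 to 11.3 ± 0.690 FPKM (-0.98, adjusted p = 0.000771). CBS, of transsulfuration, fell from 5.54 ± 2.25 to 2.27 ± 0.343 FPKM (-0.95, adjusted p = 0.0198), but not without PD replicate 2 (0.0725). CBS has a near-identical copy in the human assembly, so its level is uncertain.

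Amino acid transporters went both ways, with 2 of 10 that rose, 3 that fell and a median of -0.089. Of all tested genes 14.3% rose and 12.7% fell. SLC1A4, a neutral amino acid exchanger, fell from 9.24 ± 0.349 to 3.88 ± 0.597 FPKM (-1.08, adjusted p = 0.000963), and the glycine transporter SLC6A9 from 4.75 ± 1.13 to 2.21 ± 0.272 FPKM (-0.83, adjusted p = 0.0106). SLC43A1, a transporter of large neutral amino acids, rose from 5.37 ± 0.325 to 8.45 ± 0.299 FPKM (0.57, adjusted p = 0.00365). Of 12 tRNA synthetases 6 fell and 1 rose, beside 12.7% and 14.3% of all tested genes, with a median of -0.34. MARS charges methionine (-0.77, adjusted p = 0.00121), IARS isoleucine (-0.61, 0.00659) and AARS alanine (-0.46, 0.0142), and all 3 fell. Leaving out DMSO replicate 2 gave 3 synthetases that fell, DMSO replicate 3 gave 2, PD replicate 1 gave 4 and PD replicate 2 gave 2, while equal totals gave 10. AARS lost its call with DMSO replicate 2 (0.060), DMSO replicate 3 (0.0575) or PD replicate 2 (0.0574) left out.

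In the list of other ATF4 and CHOP targets 3 of 16 tested genes rose and 5 fell, with a median of 0.029. Of all tested genes 14.3% rose and 12.7% fell, so the rises were near that share. KLHL24 rose from 10.0 ± 1.18 to 26.5 ± 2.11 FPKM (1.32, adjusted p = 0.000416), and ERO1A, an oxidase of the endoplasmic reticulum that CHOP induces, from 16.0 ± 2.78 to 30.9 ± 2.51 FPKM (0.92, adjusted p = 0.00316). EIF4EBP1, an inhibitor of cap-dependent translation, fell from 16.9 ± 5.13 to 6.82 ± 1.99 FPKM (-1.18, adjusted p = 0.0141), but not without PD replicate 2 (0.0551). Leaving out single DMSO libraries gave 3 (replicate 1), 2 (replicate 2) or 1 (replicate 3) that fell, and leaving out PD libraries 2 (replicate 1), 0 (replicate 2) or 3 (replicate 3). The rises were 2 or 3 in these fits. In the list of the IRE1 and ATF6 arms of the unfolded protein response 5 of 11 rose and 1 fell. The same 14.3% and 12.7% of all tested genes stand beside these counts. The chaperone HSPA5 rose from 268 ± 6.04 to 463 ± 47.1 FPKM (0.78, adjusted p = 0.00249) and the co-chaperone DNAJB9 from 7.18 ± 1.16 to 12.7 ± 3.12 FPKM (0.73, 0.0226). The factor XBP1 fell from 59.1 ± 6.12 to 42.9 ± 5.95 FPKM (-0.46, 0.0342). Leaving out DMSO replicate 2 gave 2 that rose, DMSO replicate 3 gave 1 and PD replicate 2 gave 1, while equal totals gave 2. DNAJB9 lost its call with DMSO replicate 2 (0.0703), DMSO replicate 3 (0.0742) or PD replicate 2 (0.0624) left out. XBP1 lost it with DMSO replicate 1 (0.073), DMSO replicate 3 (0.0919), PD replicate 1 (0.107) or PD replicate 2 (0.115) left out.

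**Figure D4:**
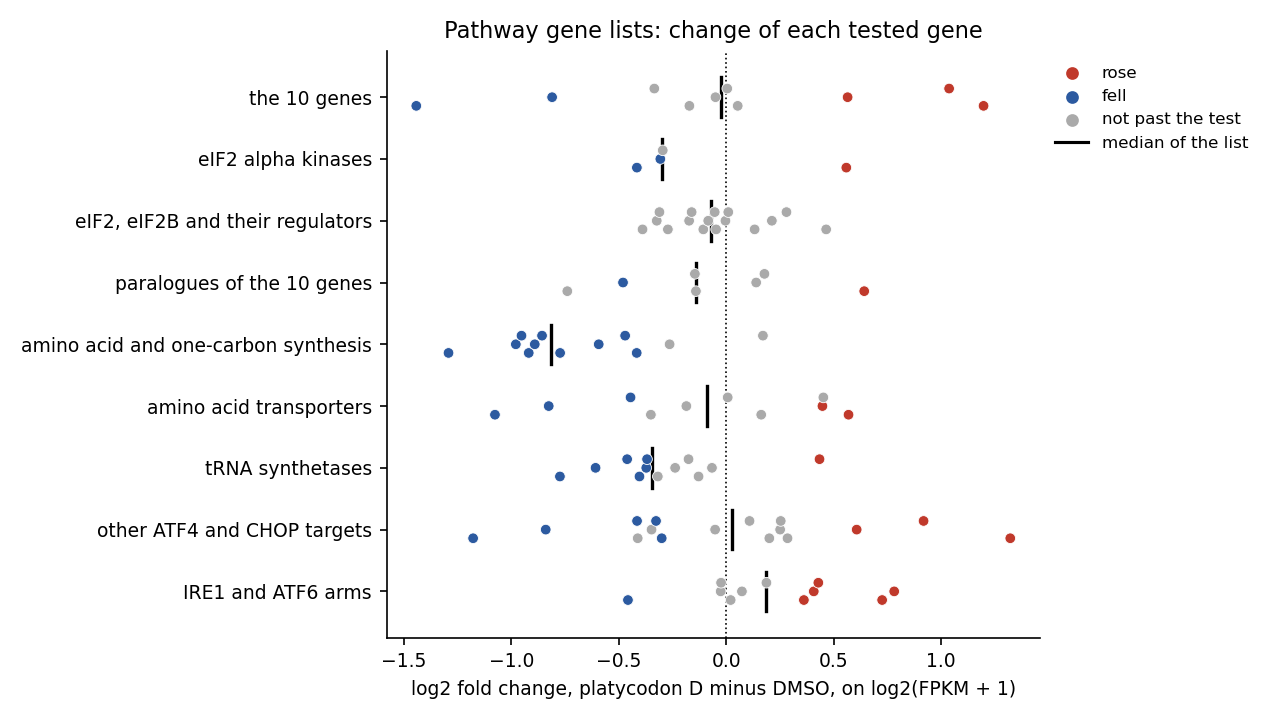
Log2 fold change (platycodon D minus DMSO, on log2(FPKM + 1)) of each tested gene in the 10 genes and 8 other lists of the pathway, red where it rose, blue where it fell and grey where it did not pass, with the list median as a black line. Amino acid and one-carbon synthesis has 10 of 12 genes in blue, while the 10 genes and the transporters have both colours.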

How the data were processed

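The values are FPKM (reads scaled by gene length and a divisor for each sample), as the authors deposited them in 1 table. It has a column for each sample, per the file headers. Each column was assigned by its group name and by the number at the end of the sample's title. Which aligner and counter made them was not given in the sources used here. Builds named in the submitters' processing notes are GRCm38 and mm10, whereas all 58735 gene identifiers and their coordinates are those of human GENCODE release 29 (GRCh38). Gene names that a spreadsheet had turned into dates (27) were replaced through their identifiers.

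FPKM times gene length was a whole multiple of 1 step per sample within a tolerance of 0.01 for 100% of values above 0, so reads were recovered. The divisor recovered with them was 1.03, 1.10 and 1.08 times the reads over genes in DMSO replicates 1 to 3. In PD replicates 1 to 3 it was 1.00, 0.997 and 0.947 times, which raised FPKM in PD relative to DMSO. The tested genes summed to 226101 to 234126 FPKM per DMSO sample and 249466 to 270128 FPKM per PD sample. How the divisor was set was not tested. Values were taken as log2(FPKM + 1), which understates the change of low genes, and fitted with limma 3.58.1 in R 4.3.3 (trend, two-sided, no covariate). The labels add a minimum of a 2-fold change, not used here. By the ratio of group means, DDIT3 (1.48-fold up) and TRIB3 (1.76-fold down) lay under it. PPP1R15A (2.06), GDF15 (2.28) and CHAC1 (2.92, down) lay above it. Over the other settings the log2 fold changes of PPP1R15A (0.87 to 1.14) and GDF15 (0.998 to 1.33) lay on both sides of 1, which is 2-fold. In simulated reads with 200 changed genes among 13296, the fit recovered 100% of 3-fold but 13.1% of 1.5-fold changes. False calls were 12.4% of its calls, above the nominal level. The simulation gave all genes the same spread setting, had no shift with GC content and changed far fewer genes than were called here. Its shares thus need not hold for these data. Adjusted p-values may be too small, and small changes can be missed. The alternatives were 18 in number, and the GC correction was chosen after seeing the data. The samples left out in the fit without DMSO replicate 1 and PD replicate 3 were picked from earlier results of these data. Calls in that fit, such as that of CEBPG, may depend on this choice. Motifs were searched with Python 3.11.15, and figures drawn with matplotlib 3.10.9.

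The 10 genes and the 8 companion lists (95 genes) were chosen with earlier results of these data known. Named genes were the 10, the kinases, tested paralogues and up to 3 genes per other list with the largest significant change, or the 2 with the highest FPKM where fewer than 2 passed. Marker, overlapping and family genes are named as such.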

Additional observations from a re-analysis of the deposited data

How the results depend on the processing

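The 3 rises (PPP1R15A, GDF15, DDIT3) and 2 falls (TRIB3, CHAC1) kept their direction and passed in each of the 18 other settings. The number of the 10 genes that fell was 4 with equal FPKM totals, quantile normalization or array weights, which added ATF4 and CEBPG. CEBPB reversed to -0.10 with equal totals, -0.026 under quantile normalization, -0.15 with array weights, -0.22 with DMSO replicate 1 left out, -0.015 with PD replicate 1 left out and -0.16 with DMSO replicate 1 and PD replicate 3 both left out. Over the fits that left out 1 replicate it lay between -0.22 and 0.23. ASNS reversed to 0.038 without PD replicate 3 (the others reached down to -0.11) and to 0.0034 without DMSO replicate 1 and PD replicate 3. SESN2 reversed to -0.16 with equal totals, -0.023 with upper quartile scaling, -0.12 under quantile normalization, -0.062 with array weights, -0.070 with DMSO replicate 1 and PD replicate 3 both left out and -0.081 after GC correction, and lay between -0.064 and 0.088 when 1 replicate was left out. None of these values passed the test, and the cause was not tested. The 3678 genes that changed became 2214 at a mean of at least 5 FPKM (fewer genes tested), 6301 with array weights and 1844 with the replicate block, and lay between 2003 and 3534 when single replicates were left out. With voom on recovered reads 2174 rose and 2098 fell. Over the companion lists 13 of 88 tested genes rose and 28 fell, beside 14.3% and 12.7% of all tested genes. The rises were 7 with no filter, 23 with array weights and 6 with the replicate block, and the falls 44 with equal totals and 13 with the block. Without single replicates they lay between 6 and 13 and between 13 and 30. Same-numbered replicates did not deviate together (correlations of -0.39, 0.17 and -0.16), and 1 of 6 samples correlated best with its own number. With the replicate block 3 of the 10 genes rose and 2 fell. CHAC1 and ASNS had the fewest reads (at least 318 and 369 per sample), but the largest SE was that of CEBPB (0.224), with at least 762.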

Other observations

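Some known targets of the response lay under the filter on low values and were not tested. CTH, of cysteine synthesis, stood at 1.09 ± 0.140 FPKM in DMSO and 0.571 ± 0.0207 FPKM in PD (SD, n = 3). NUPR1, a stress-induced chromatin protein, stood at 0.613 ± 0.0579 and 0.393 ± 0.0146 FPKM. The groups did not overlap in either gene. Of the genes that passed the filter 21.9% were lower in PD without overlap, and no such share was taken for genes under the filter. Both rest on few reads, 20 to 53 per sample for CTH and 32 to 66 for NUPR1. ADM2 was listed at 0.0761 to 0.213 FPKM, and FGF21 at 0 in 4 of 6 samples and at no more than 0.0507 FPKM. These genes are named here because their values lay under the filter, and were picked after those values had been seen.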
